A study of Homo sapiens with 9 samples.

Results

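Chrom-seq labels RNA at a chosen chromatin mark, and the data described here are the 3 libraries made with the CBX1_W42A reader set against the 3 libraries made with the reader-free control, 6 of the 9 libraries of the series. All were prepared from HEK293T, an established human embryonic kidney cell line. In the CBX1_W42A group, the chromodomain of CBX1 carrying the amino acid change W42A was fused to SunTag peptide epitopes. The control carried the epitopes without a reader, and the 3 libraries of the CBX1 group carried the unmutated chromodomain. In every group an antibody fragment fused to the peroxidase APEX2 bound the epitopes, and the column labels of all groups name a nuclear localization signal (NLS). At 48 h after transfection the cells of each group received biotin-aniline (500 μM, 30 min), which APEX2 couples to guanosines during a pulse of hydrogen peroxide (1 mM, 1 min). Captured, polyadenylated RNA was then sequenced. The reader was delivered by transfection and only its chromodomain was present, so neither group reports on full-length CBX1. The paper calls the replicates of its readers independent without describing the cultures, and the mutant is not among those it names there. The p-values therefore measure the spread between these libraries, which may be technical. The labels give no date of culture or preparation. If the mutant libraries were prepared apart from the others, the reader and the preparation cannot be told apart.

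CBX1 (HP1β) is a heterochromatin protein whose chromodomain holds trimethylated lysine 9 of histone H3 (H3K9me3) in a cage of aromatic side chains. Tryptophan 42 is one wall of that cage, and replacing it with alanine is a standard way to disable binding of the methylated tail. H3K9me3 covers pericentromeric repeats, silenced lineage genes and the clusters of zinc finger genes on chromosome 19. The comparison with the reader-free control therefore asks which RNAs a reader with a damaged cage still captured.

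The mutant still captured a set of mostly scarce RNAs above the control. Of 18680 genes with a summed count over 18 in the 6 libraries, 182 were enriched with CBX1_W42A (0.974% of those tested), with thresholds of 0.05 on the adjusted p and 0.75 on the log2 fold change. The same thresholds gave 4 depleted RNAs (0.0214%). By adjusted p alone, without the fold threshold, 256 genes were higher and 233 lower with CBX1_W42A. The enriched set held 74 noncoding and 108 protein-coding RNAs. That was 1.71% of the 4330 noncoding genes tested and 0.753% of the 14350 protein-coding ones. Their median log2 fold change was 1.22, against 0.01 over all genes tested. Just inside the fold threshold lay CASS4 at 0.751, and just outside it SKIDA1 at 0.748. In all 182, each CBX1_W42A library was above each control library. The 182 were chosen on these same libraries, so this order is no separate support. Over all genes tested, 2226 showed that order (11.9%) and 2400 showed the reverse. RNA before capture was not analysed here, so a change in capture and a change in the amount of an RNA cannot be told apart, nor can more expressing cells and more RNA per cell.

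The calls rested on all 6 libraries together. Leaving out control replicate 1 left 32 enriched RNAs, control replicate 2 left 90 and control replicate 3 left 91. Without CBX1_W42A replicate 1, 2 or 3, the number was 103, 54 or 43. In all 6 of these fits 23 RNAs were called, 10 of them noncoding, and 60 of the 182 were called in none. The 23 are ACTA1, ARRDC3, KCNQ1OT1, ZNF117, SLC43A2, RABL2A, BATF3, FN3K, RP1-167A14.2, CARD9, SETD5-AS1, RP11-83A24.2, COL7A1, MYH3, FAM184B, RP11-599J14.2, IDI2-AS1, RP11-29H23.5, RP11-500G22.2, TNXB, PLAC8L1, RP11-299G20.2 and TFP1. When the test asked whether a change exceeded log2 0.75 itself, 1 RNA remained, ACTA1.

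**Figure D1:**
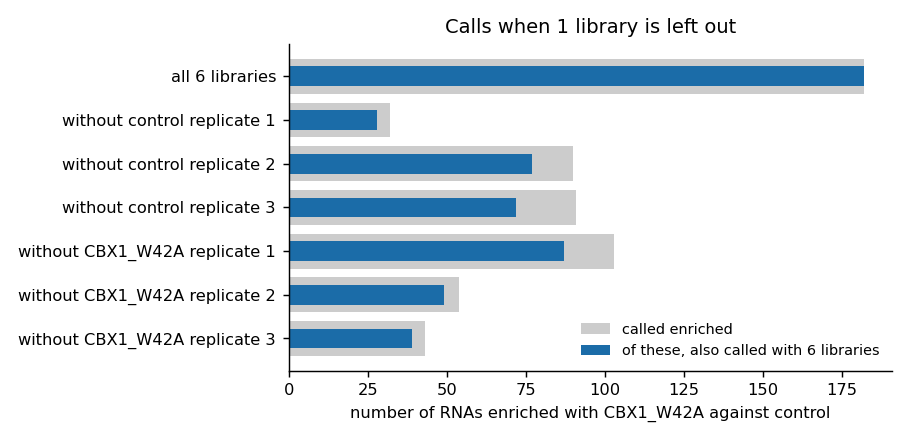
Number of RNAs called enriched with CBX1_W42A against control with all 6 libraries and with each library left out (grey bars), and how many of them were among the 182 called with all 6 (blue bars). The count fell from 182 to between 32 and 103, the lowest without control replicate 1.

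The 6 libraries held between 8379542 and 11082852 counts each, and between 21709 and 23498 genes were detected per library, more in each CBX1_W42A library than in any control library. Libraries of 1 group correlated at 0.982 to 0.989 and libraries of different groups at 0.974 to 0.987. The first principal component, 52.5% of the variance, separated the groups. All 7 HEK293T marker genes were present, at a summed level of 1140 to 1330 CPM, the count scaled to library size, with CBX1_W42A and 1140 to 1400 in the control. Of 14 marker genes of other cell types, 10 had at most 18 counts over the 6 libraries and 4 (CD3E, HBB, DCN and NANOG) had none, and their summed level was 9.24 to 13.6 CPM with CBX1_W42A and 10.7 to 12.5 CPM in the control. The 379 olfactory receptor genes, silent in most tissues, held 62 counts in the 3 CBX1_W42A libraries and 45 in the 3 control libraries. The CBX1 gene itself, whose chromodomain the reader shares, was at 568, 530 and 649 CPM with CBX1_W42A and at 681, 546 and 594 CPM in the control, with overlapping groups (log2 fold change −0.06 ± 0.11, SE, adjusted p = 0.811).

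The noncoding RNAs came from several gene types. Enriched were 30 of 1875 antisense genes tested (1.6%), 20 of 1250 long intergenic noncoding RNAs (lincRNAs, 1.6%), 14 of 815 pseudogenes (1.72%) and 8 of 240 processed transcripts (3.33%), against 1.71% of all noncoding genes tested. The median log2 fold change over all tested members was 0.38 for antisense genes, 0.37 for lincRNAs, 0.34 for processed transcripts and 0.21 for pseudogenes, against −0.03 for protein-coding genes. None of the 78 sense-overlapping transcripts tested was called, at a median of 0.24. Noncoding genes together took 4.11%, 4.13% and 3.95% of the counts with CBX1_W42A and 3.06%, 3.26% and 3.4% in the control. Those groups did not overlap, and the exact two-sided permutation test gave p = 0.1, the smallest value 3 against 3 libraries allow. Noncoding here is any type but protein coding, so this share includes mitochondrial tRNA genes. A list of 20 nuclear long noncoding RNAs, MALAT1 among them, held 119324 of the 1209112 noncoding counts with CBX1_W42A. In the control it held 73508 of 922612.

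The first bases of 4 noncoding RNAs are shown because the labeling chemistry acts on guanosine, which is set in capitals. They are 4 of the 5 noncoding RNAs with the smallest p. Each line runs 5′ to 3′ from the start of the first exon of the longest annotated transcript, read from GRCh37. The intervals are chr6:167412454-167412553, chr3:9438243-9438342, chr4:140374831-140374930 and chr12:9567399-9567447 on the minus strand.
RP1-167A14.2: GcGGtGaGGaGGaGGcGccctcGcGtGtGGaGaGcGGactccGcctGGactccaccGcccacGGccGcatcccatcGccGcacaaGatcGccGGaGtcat
SETD5-AS1: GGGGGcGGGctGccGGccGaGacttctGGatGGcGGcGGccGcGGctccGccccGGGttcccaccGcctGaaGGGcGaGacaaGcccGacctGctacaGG
RP11-83A24.2: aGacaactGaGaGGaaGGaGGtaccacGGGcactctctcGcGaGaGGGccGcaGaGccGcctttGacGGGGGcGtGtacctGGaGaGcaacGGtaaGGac
RP11-599J14.2: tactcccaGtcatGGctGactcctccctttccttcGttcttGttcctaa

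Guanosine made up 34% of the stretch of RP1-167A14.2, 40% of SETD5-AS1 and 38% of RP11-83A24.2. It made up 12.2% of the 49-base first exon of RP11-599J14.2. Over whole exons the 4 lay between 21.2% in RP11-599J14.2 and 28.3% in RP1-167A14.2. Over the 179 enriched RNAs with annotated exons, the median guanosine share of exons was 26.4% for coding and 23.1% for noncoding RNAs, against 24.6% of both kinds among all genes tested. Annotated exon length had a median of 4280 bases in enriched coding RNAs against 5270 in coding genes tested, and of 2220 against 1430 bases in noncoding ones. The median gene span was 29.3 against 34.3 kb in coding and 29.1 against 8.28 kb in noncoding genes.

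KCNQ1OT1, the imprinted antisense transcript of the KCNQ1 locus on chromosome 11 (2629558 to 2721224, hg19), was the noncoding RNA with the smallest p. It was at 40.1, 39.8 and 37.4 CPM in the CBX1_W42A libraries and at 16.9, 16.3 and 23.2 CPM in the control libraries. The lowest mutant library was well above the highest control library, and the log2 fold change was 1.06 ± 0.14 (adjusted p = 0.00175). RP1-167A14.2, an antisense transcript of chromosome 6, was at 38.2, 53.5 and 41.2 CPM against 20, 21.3 and 25.3 CPM (log2 fold change 1 ± 0.15, adjusted p = 0.00187). SETD5-AS1, antisense to SETD5 and THUMPD3, was at 63.9, 67 and 51.8 CPM against 35.1, 34.3 and 33.1 CPM. Its fold was the smallest of the 10 noncoding RNAs with the smallest p (log2 0.83 ± 0.12, adjusted p = 0.00193), and 72.2% of its span was free of other genes on its strand.

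Larger folds came from scarcer transcripts. IDI2-AS1, antisense to the isopentenyl diphosphate isomerase genes IDI1 and IDI2, was at 8.58, 14.1 and 9.04 CPM with CBX1_W42A against 2.19, 2.54 and 4.71 CPM (log2 1.77 ± 0.28, adjusted p = 0.0038). RP11-29H23.5, a transcribed pseudogene at MSTO1 and YY1AP1 on chromosome 1, was at 5.27, 9.33 and 6.34 CPM against 1.33, 1.77 and 2.54 CPM (log2 1.9 ± 0.31, adjusted p = 0.00443). In both, the lowest mutant library was above the highest control library, as the choice of these RNAs required. RP11-83A24.2, RP11-599J14.2, RP11-500G22.2, RP5-864K19.4 and RP11-299G20.2 made up the rest of the 10, with log2 fold changes between 1.02 and 1.23 and mean levels between 12.1 and 36.4 CPM with CBX1_W42A.

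**Figure D2:**
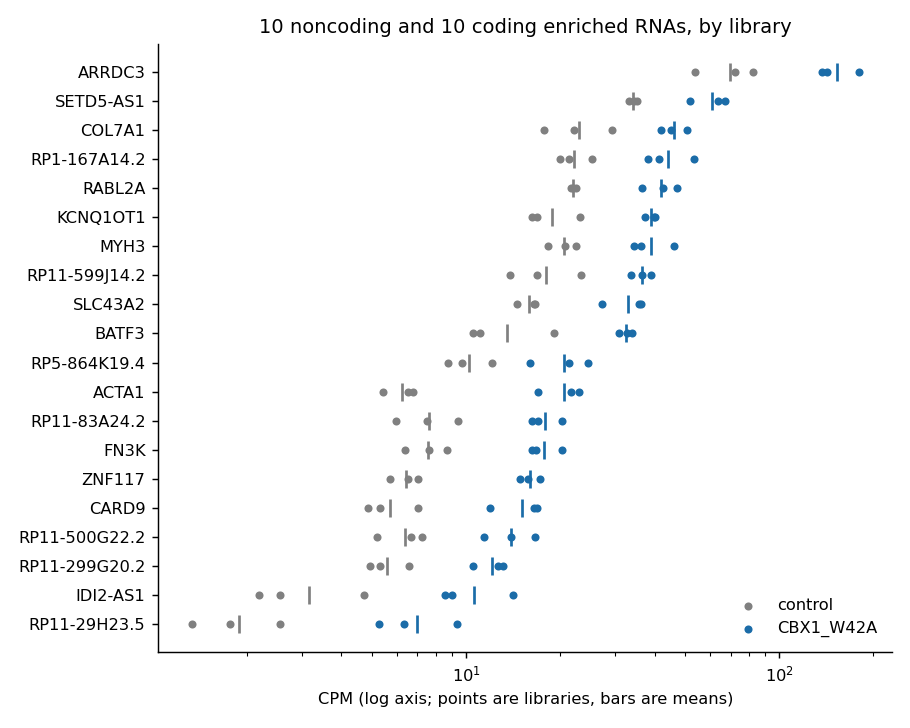
CPM (log axis) of the 10 noncoding and 10 protein-coding enriched RNAs with the smallest p, with a point for each library and a bar for each group mean. The choice of these RNAs required the 3 CBX1_W42A points (blue) to lie to the right of the 3 control points (grey). Means run from 6.98 against 1.88 CPM for RP11-29H23.5 up to 153 against 69.7 CPM for ARRDC3.

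Among noncoding RNAs with a mean of at least 1 CPM with the mutant, those with the largest folds were close to the limit of counting. CEACAM20, annotated as a processed transcript, had 7, 15 and 9 counts with CBX1_W42A and 2, 0 and 0 in the control (adjusted p = 0.0405). Its neighbor CEACAM22P, a pseudogene of the same carcinoembryonic antigen family on chromosome 19, had 18, 19 and 11 counts against 3, 2 and 2 (log2 2.59 ± 0.6, adjusted p = 0.0301). RP11-386G11.5, RP11-315D16.4 and RP11-883A18.3 followed, with mean levels of 1.32 to 2.25 CPM and log2 fold changes of 2.35 to 3.09. In 3 enriched RNAs the control libraries had no count, and bounds were set with a floor of 3 counts over the control group. AC003002.4, with 5, 6 and 9 counts, was at least 6.41-fold higher with CBX1_W42A. ZNF20, with 3, 18 and 3 counts, was at least 7.7-fold higher, a bound carried by replicate 2 and 2.8-fold without it. RP11-65J21.4, with 2, 11 and 6 counts, was at least 6.09-fold higher, and at least 3.73-fold without replicate 2.

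None of the coding genes opposite the enriched antisense RNAs was called. On the other strand, 23 of the 30 had a protein-coding gene that was tested, 32 such genes in all. None of the 32 was enriched and none depleted, and their median log2 fold change was −0.13 (quartiles −0.23 and 0.13). SETD5, opposite SETD5-AS1, passed the p threshold downward but not the fold threshold (log2 −0.43, adjusted p = 0.0388). For the whole table, the comparable share enriched was 0.753% of protein-coding genes. At that share 32 genes would hold few calls or none, so the absence of calls says little about these genes.

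Nuclear long noncoding RNAs, many of them retained at or near chromatin, formed a list of 20 chosen with earlier results of these data known. Of 19 tested, 4 were enriched (KCNQ1OT1, SETD5-AS1, RP11-500G22.2 and FTX) and none depleted, against 1.71% of all noncoding genes tested, and the median log2 fold change was 0.43. Since the list was chosen with results known, the count is no independent evidence. MALAT1, the abundant transcript of nuclear speckles, was at 2690, 2670 and 2470 CPM with CBX1_W42A and at 1720, 1550 and 1640 CPM in the control. The groups were apart, and the difference passed the p threshold but not the fold threshold (log2 0.67 ± 0.1, adjusted p = 0.00187). NEAT1, the scaffold of paraspeckles, overlapped between the groups, with 645, 459 and 725 CPM against 425, 298 and 482 CPM (log2 0.6 ± 0.16, adjusted p = 0.0469). H19 (log2 0.22 ± 0.2, adjusted p = 0.598), AC004158.2 (log2 0.65 ± 0.21, adjusted p = 0.0937) and LINC00662 (log2 0.45 ± 0.14, adjusted p = 0.0789) did not pass. FTX, a lincRNA of the X inactivation center named here after its values were seen, was at 26.6, 25.6 and 21.6 CPM against 10.2, 15.8 and 16.8 CPM (log2 0.8 ± 0.17, adjusted p = 0.0235).

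Among protein-coding RNAs the strongest was ACTA1, the actin of skeletal muscle. It was at 17, 22.9 and 21.6 CPM with CBX1_W42A and at 5.43, 6.51 and 6.77 CPM in the control, so that the lowest mutant library was above the highest control library by a wide margin. The log2 fold change was 1.72 ± 0.18 (adjusted p = 0.000136), the smallest p of all genes. ARRDC3, an arrestin-domain adaptor of receptor trafficking, was the most abundant enriched RNA, at 137, 180 and 142 CPM against 72.5, 82.5 and 54 CPM (log2 1.13 ± 0.14, adjusted p = 0.000856). BATF3, a basic leucine zipper transcription factor, was at 33.9, 30.8 and 32.7 CPM against 10.5, 19.1 and 11.1 CPM (log2 1.26 ± 0.18, adjusted p = 0.00185). The mutant libraries of BATF3 were close to each other, and control replicate 2 was the nearest control to them.

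SLC43A2, a transporter of large neutral amino acids, FN3K, the kinase that removes sugar from glycated proteins, and CARD9, an adaptor of antifungal immunity, had log2 fold changes of 1.05, 1.23 and 1.41. COL7A1, the collagen of anchoring fibrils, stood at 1 and MYH3, the embryonic myosin heavy chain, at 0.93. RABL2A (log2 0.93 ± 0.13) has a near-identical copy, RABL2B, between which reads can be split, and its level is uncertain. ZNF117 (log2 1.32 ± 0.18) shares a large part of its span with the endogenous retroviral gene ERV3-1 on the same strand, with 54.5% of it free. The largest protein-coding folds at 1 CPM or more were again in scarce RNAs. ZIC1, a transcription factor of neural development, had 11, 12 and 17 counts against 1, 0 and 3. PRSS48, a serine protease, had 11, 12 and 12 against 3, 1 and 0. CELF6, an RNA-binding splicing regulator, and CDCP2 had log2 fold changes of 2.52 and 2.41, with 22% and 39.4% of their spans free of same-strand genes. This CELF6 entry overlaps another entry of the same name on its strand, whose values are not given here. RP11-87C12.2 (2.5) lay inside other genes of its strand.

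A pair of gene families and 4 muscle genes were picked from the calls after the values were seen, so that their counts are a description only, beside 0.753% of all coding genes enriched. Of 8 myosin heavy chain genes tested, MYH3 and MYH7B were enriched (median of the family log2 0.43). Of 12 axonemal dynein heavy chain genes tested, which drive the beating of cilia, DNAH12 and DNAH10 were enriched (median 0.33). DNAH12 was at 3.57, 6.12 and 4.99 CPM with CBX1_W42A against 1.05, 2.32 and 1.09 CPM (log2 1.71 ± 0.36, adjusted p = 0.0193). The 4 genes picked were NEB (nebulin, log2 1.1), RYR1 (the calcium release channel of muscle, 1.01), PYGM (muscle glycogen phosphorylase, 1) and CLCN1 (the muscle chloride channel, 2.2). Their control means ran from 0.736 CPM for CLCN1 to 4.83 CPM for NEB. Among the markers of other cell types, the muscle gene DES was at 0.569 CPM with CBX1_W42A and 0.804 CPM in the control (log2 −0.49 ± 0.63, adjusted p = 0.706), and MYH7 had 1 count in all 6 libraries.

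Fold change mostly fell as RNA level rose, and the enriched RNAs were mostly scarce. Over all 6 libraries the enriched RNAs had a median of 4.62 CPM, against 16.2 CPM for all genes tested, and 124 of the 182 had a mean below 10 CPM with CBX1_W42A. The median log2 fold change of protein-coding genes went from 0.49 below 1 CPM, through 0.29 between 1 and 5 CPM and 0.04 between 5 and 20 CPM, to −0.08 and −0.13 above 20 and 100 CPM. Noncoding genes had medians of 0.49, 0.35, 0.21, 0.1 and 0.14 in the same classes. Below 5 CPM the shares enriched were 0.608% of coding and 0.519% of noncoding genes under 1 CPM, and 2.23% and 2.07% from 1 to 5 CPM. From 5 to 20 CPM, 3.93% of noncoding and 1.78% of coding genes were enriched, and from 20 to 100 CPM 1.78% and 0.116%. When this trend with abundance was removed from the fit, 52 RNAs were enriched, 16 of them noncoding. The part of RNA level in the calls was not tested further.

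**Figure D3:**
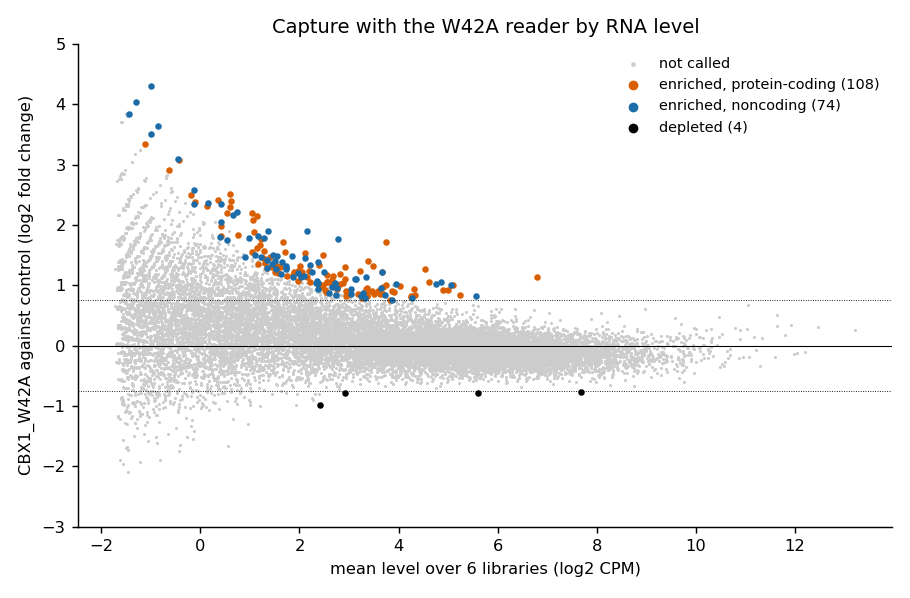
Log2 fold change of CBX1_W42A against control for each gene by its mean level over the 6 libraries (log2 CPM). The 108 protein-coding (orange) and 74 noncoding (blue) enriched RNAs lie mostly at the left, among scarce RNAs, and the 4 depleted ones are black. Dotted lines mark a log2 fold change of 0.75 in each direction, and 3 enriched RNAs with no control count lie above the range shown.

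**Figure D4:**
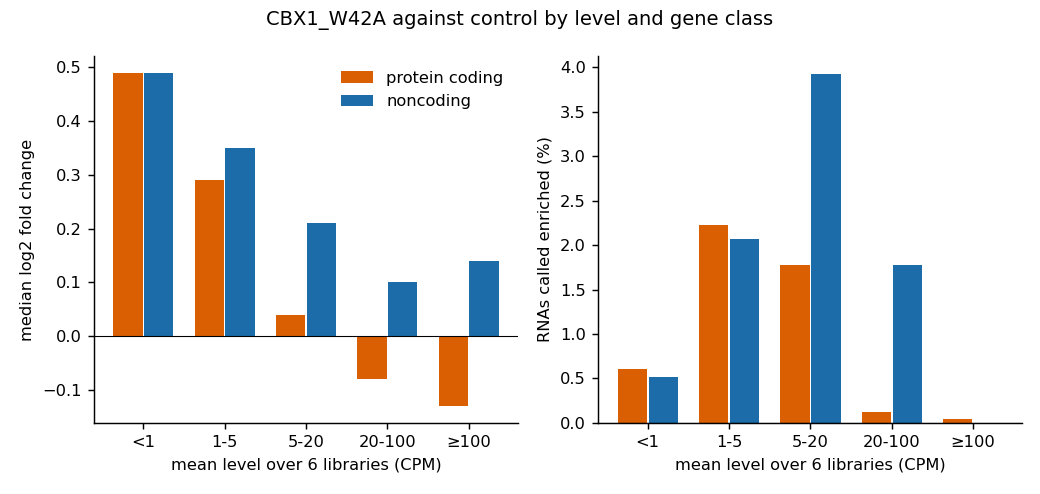
Median log2 fold change of CBX1_W42A against control (left) and share of RNAs called enriched (right) for protein-coding (orange) and noncoding (blue) genes in 5 classes of mean CPM. Medians fall from 0.49 in both kinds under 1 CPM to −0.13 for coding and 0.14 for noncoding genes at 100 CPM or more. From 1 CPM upward the noncoding medians are the higher.

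The zinc finger genes of chromosome 19, a known domain of H3K9me3, were near the background. Of 185 tested, 2 were enriched (1.08%, ZNF345 and ZNF20), at a median log2 fold change of 0.02. They took 0.314%, 0.379% and 0.32% of the counts with CBX1_W42A and 0.308%, 0.335% and 0.334% in the control, which overlap. Of 226 ZNF genes elsewhere, ZNF117 alone was enriched (median −0.04). Chromosome 19 as a whole gave 14 of 1276 (1.1%). By chromosome, the share ran from 0.316% on chromosome 13 to 1.54% on chromosome 4 among the autosomes, and was 0.814% on X. Enriched RNAs were found on all 22 autosomes and X.

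Most mitochondrial transcripts had a positive fold change with the mutant, and 2 of 24 were called enriched (8.33%, against 0.974% of all genes tested). Of 24 mitochondrial genes tested, 22 had a positive fold change and the median was 0.26. The calls were the tRNA genes MT-TQ, at 15.6, 15.8 and 19.9 against 7.81, 10.4 and 10.4 CPM (log2 0.85 ± 0.18, adjusted p = 0.0201), and MT-TS1, at 8.13, 6.85 and 10.2 against 4.38, 3.86 and 4.59 CPM (log2 0.97 ± 0.23, adjusted p = 0.0329). Both were counted on the minus strand of the mitochondrial genome. The share of counts in mitochondrial genes was 4.33%, 4.39% and 4.2% with CBX1_W42A and 3.16%, 3.45% and 3.5% in the control (exact two-sided permutation test, p = 0.1, the smallest possible). The higher mitochondrial share goes with the same libraries as the noncoding enrichment, and its part in that result was not tested. Mitochondrial tRNA genes count in both shares.

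Chromatin and response genes were mostly not called. Only 0.753% of all coding genes tested were enriched, so lists of this size would hold few calls at that share. Of 22 genes of the H3K9 methylation machinery none was enriched or depleted, at a median log2 fold change of −0.15, and 3 had a positive value. SETDB2, CHAF1B, KDM4A and SUV39H2 had the smallest p among them, with log2 fold changes of −0.55, −0.39, −0.4 and −0.41 and adjusted p of 0.0544, 0.0544, 0.0544 and 0.0794. KDM4D, a relative of KDM4A that this list did not hold, was enriched (log2 0.88 ± 0.18, adjusted p = 0.0201). It was named after its values were seen. None of 30 Polycomb genes (median −0.07) and none of 40 splicing regulators and CLK kinases tested (median −0.05) was called. PHC1 (−0.35 ± 0.13) and HNRNPH2 (−0.35 ± 0.11) had the smallest p of their lists, at 0.134 and 0.0955 after adjustment. Of 28 immediate early and oxidative stress genes tested none was called. HMOX1, the stress-induced heme oxygenase, was at 70, 64.8 and 72.2 CPM against 41.5, 54.3 and 49.5 CPM, under the fold threshold (log2 0.51 ± 0.12, adjusted p = 0.031). TXNIP, a regulator of thioredoxin, likewise passed the p threshold alone (log2 0.48 ± 0.13, adjusted p = 0.0488). FOS (log2 −0.7 ± 0.21, adjusted p = 0.0683) and EGR2 (0.71 ± 0.22, adjusted p = 0.0789) did not pass.

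Of 18 interferon-stimulated genes tested, IFI27 was enriched and the median was −0.31. For this and the next lists, the share enriched over all genes tested was 0.974%, at which small lists would hold few calls. IFI27 was at 13.2, 14.3 and 15.7 CPM with CBX1_W42A against 6.57, 6.07 and 10.5 CPM (log2 0.91 ± 0.2, adjusted p = 0.0287). HERC5 had −0.45 ± 0.12 (adjusted p = 0.0478). Of 13 imprinted genes tested only KCNQ1OT1 was enriched, at a median of 0.13, and PEG10 (log2 1.16 ± 0.43, adjusted p = 0.144) and PHLDA2 (0.27 ± 0.21, adjusted p = 0.505) did not pass. No gene was called among 81 cytosolic ribosomal protein genes (median 0), 85 nuclear respiratory chain genes (−0.04), 12 SNHG genes (0.03), 37 replication-dependent histone genes (0.17), 24 HOX genes (0.12) and 15 protocadherin genes (0.42). Of 285 genes spanning over 500 kb, 1 was enriched (0.351%) and 1 depleted.

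Depletion was called for EXOC4, EIF3C, LRRC37A2 and TSPAN7, all with higher control libraries throughout. EXOC4, a subunit of the exocyst, was at 37.3, 40.2 and 30 CPM with CBX1_W42A and at 62.5, 69.2 and 53.3 CPM in the control (log2 −0.78 ± 0.13, adjusted p = 0.00679). EIF3C, a subunit of a translation initiation factor, was at 151, 160 and 144 CPM against 292, 250 and 235 CPM (log2 −0.77 ± 0.11, adjusted p = 0.0018). Reads of EIF3C can be split with its near-identical copy EIF3CL, and those of LRRC37A2 (log2 −0.98 ± 0.24, adjusted p = 0.0359) with its paralogs, so both are uncertain. TSPAN7, a tetraspanin (log2 −0.79 ± 0.2, adjusted p = 0.0414), overlaps another annotated gene over nearly its whole span. Without one or another library between 0 and 8 RNAs were depleted.

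The direct test of the mutant against the unmutated reader covered 19360 genes, with 39 higher (0.201%) and 154 lower (0.795%) with CBX1_W42A. The counts were 17 and 68 without CBX1 replicate 1, 18 and 87 without CBX1 replicate 3, and 25 and 90 without CBX1_W42A replicate 3. Of the 182 RNAs enriched over the control, 4 were higher and 6 lower with the mutant, and 172 were not called. By adjusted p alone, without the fold threshold, 5 of the 182 were higher and 13 lower. The 182 were chosen on the same mutant libraries, which favors high values of the mutant here. Their median difference was log2 −0.14. For 76 of them the 95% interval of the difference lay wholly within 0.75 in both directions, and for 67 it reached −0.75 or lower. Of these, 33 had an interval wholly below 0, while in the other 34 it held both 0 and −0.75. Among those wholly inside, KCNQ1OT1 differed by −0.08 (−0.32 to 0.16), with a log2 fold change over the control of 1.06 for the mutant and 1.17 for the unmutated reader. ACTA1 differed by −0.17 (−0.49 to 0.14), SETD5-AS1 by −0.05 (−0.29 to 0.19) and MYH3 by 0.08 (−0.19 to 0.34).

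BATF3, LBX1, INHBB and FAM196A were the RNAs higher with the mutant than with either other group. BATF3 had log2 1.26 over the control with the mutant and 0.16 with CBX1, a difference of 1.13 (0.76 to 1.51, adjusted p = 0.0017). LBX1, a homeobox factor of muscle precursors and spinal cord, had 0.79 and −0.56, a difference of 1.38 (0.95 to 1.81, adjusted p = 0.000807). It was at 9.65, 13.5 and 13.2 CPM with the mutant and 7.72, 6.07 and 7.13 CPM in the control. INHBB, the βB chain of activin and inhibin, differed by 1.05 (0.64 to 1.46, adjusted p = 0.00633), with CPM of 11.3, 18.2 and 17.9 against 8.67, 8.71 and 7.98 in the control. FAM196A differed by 1.74 (0.98 to 2.51, adjusted p = 0.0131) at a low level, 3.53 against 1.26 CPM in the control. ARRDC3 was higher by 0.69 (0.46 to 0.93, adjusted p = 0.00187), under the fold threshold.

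AP000695.4, CTC-490E21.12, IL34, SLC6A12, AVIL and ALLC were enriched over the control and lower than with the unmutated reader. AP000695.4, an antisense transcript at CLDN14, was at 4.65, 4.25 and 4.05 CPM with the mutant and 0.857, 1.54 and 2.3 CPM in the control. Its log2 fold change over the control was 1.49 with the mutant and 3 with CBX1, and the direct difference was −1.47 (−1.89 to −1.06, adjusted p = 0.000561). IL34, a ligand of the CSF1 receptor, had 1.07 and 2.26 (difference −1.16, −1.57 to −0.75, adjusted p = 0.00229). SLC6A12, the betaine and GABA transporter, had 1.25 and 2.36 (difference −1.09, −1.56 to −0.61, adjusted p = 0.0131). AVIL, the actin-binding protein advillin, had 1.18 and 2.09 (difference −0.88, −1.31 to −0.46, adjusted p = 0.0251). CTC-490E21.12, a coding locus of chromosome 19, differed by −0.89 (−1.19 to −0.59, adjusted p = 0.00187). ALLC, named after its values were seen, differed by −0.84 (−1.3 to −0.38, adjusted p = 0.0482).

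**Figure D5:**
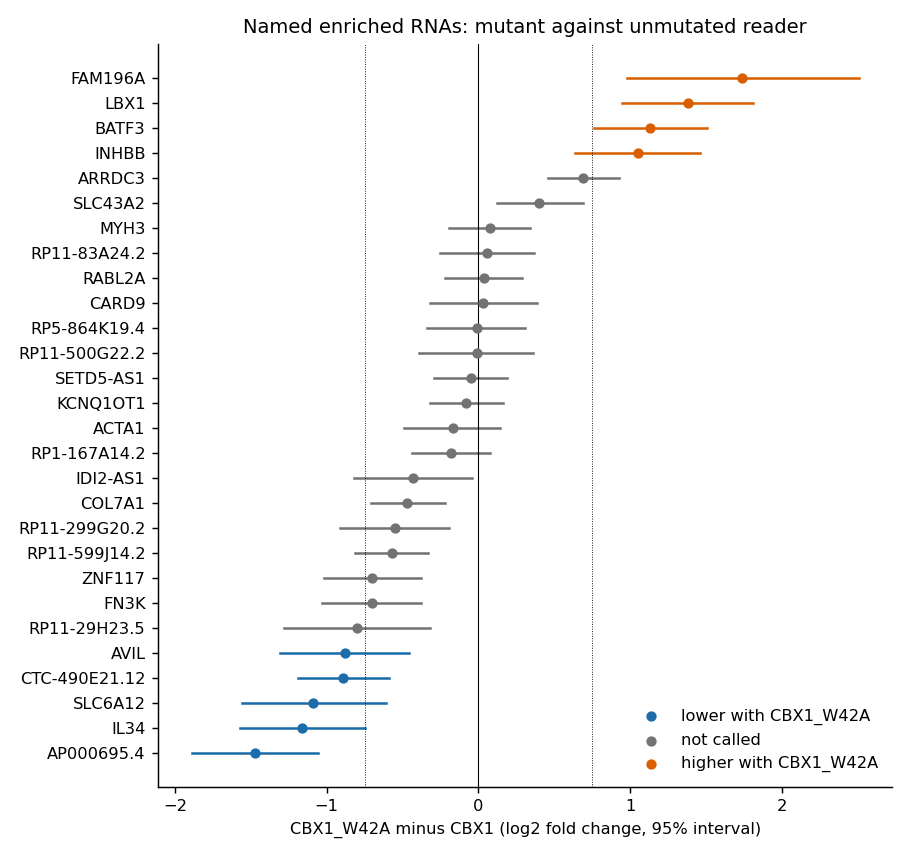
Difference in log2 fold change between CBX1_W42A and CBX1 for 28 named RNAs enriched over the control, with 95% intervals from the direct test. Points run from −1.47 for AP000695.4 to 1.74 for FAM196A, dotted lines mark −0.75 and 0.75, and colors mark the 4 called higher and the 5 called lower.

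By gene class, 22 of 189 chromosome 19 ZNF genes in the direct test were lower with the mutant (11.6%) and none higher, at a median of −0.38 and against 0.795% lower over all genes tested. Of 228 ZNF genes of other chromosomes, 6 were lower (median −0.05). Of 4767 noncoding genes 44 were lower (0.923%) and 8 higher (0.168%, median −0.13), shares near those over all genes. The mitochondrial genes had a median of 0 and no call among 23. Against the control they share, 36 of 187 chromosome 19 ZNF genes were enriched with CBX1 (19.3%) and 2 of 185 with the mutant (1.08%). Over all genes tested the shares were 7.06% with CBX1 and 0.974% with the mutant, and for noncoding genes 14.5% and 1.71%. These shares come from separate fits and depend on the thresholds. The median log2 fold change over the control was 0.49 with CBX1 and 0.34 with the mutant for noncoding genes. For the chromosome 19 ZNF genes it was 0.41 and 0.02.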

How the data were processed

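Counts of read pairs per gene were deposited by the authors as whole numbers without normalization, for 57820 genes. Per the labels and the paper's methods, the authors used fastp 0.23.1 for trimming, HISAT2 2.1.0 for alignment to hg19 (GRCh37) and featureCounts 2.0.1 for counting on GENCODE 19. No column was left out (0 not used) and 0 entries named no gene. The listed length of all 57820 genes is their span. After TMM scaling, the quasi-likelihood test of edgeR 4.0.16 (R 4.3.3) was run with Benjamini-Hochberg adjustment on the 6 libraries of the compared groups and genes with a summed count over 18. Thresholds for a call were 0.05 for the adjusted p and 0.75 for the log2 fold change. The test was checked on simulated counts. CPM are TMM-scaled; ± is the SE of a log2 fold change and intervals are 95%, for counting and replicate error. Noncoding means any type but protein coding. Sequences and exons came from GRCh37 and the lifted GENCODE annotation, with exons for 55534 genes.

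The members and lists were chosen with earlier results of these data known. Genes named were the 10 noncoding and 10 coding enriched RNAs with the smallest p and all mutant libraries above all controls, the 5 of each kind with the largest fold at 1 CPM or more, the depleted RNAs, 8 RNAs of interest, up to 5 enriched RNAs called in each direction against CBX1, and up to 4 members of each list with the smallest p. Alternatives were DESeq2 (version 1.42.0), other scalings, filters, fits and thresholds, removal of trends, and leaving out each library. Some items are not reported here.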

Additional observations from a re-analysis of the deposited data

How the results depend on the processing

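Of the 182 enriched RNAs, 168 were called by DESeq2 (189 in all, 74 noncoding) and 178 with RLE factors. Enriched, noncoding enriched and depleted RNAs numbered 338, 152 and 9 without a filter on low counts. With all 9 libraries in one fit the enriched numbered 282, 131 of them noncoding. They numbered 52 and 16 with the abundance trend removed, and 1, 0 and 0 by the test against log2 0.75. Depleted RNAs were 0 with upper-quartile factors or a minimum log2 fold change of 1, 1 with library size alone or at least 10 counts in every library, and 10 with the trend in gene span removed. Leaving out 1 library gave 32 to 103 enriched, 12 to 38 noncoding and 0 to 8 depleted RNAs, and against CBX1 17 to 46 higher and 68 to 184 lower. RNAs higher and lower with CBX1_W42A than with CBX1 were 70 and 244 without a filter, 23 and 102 at a minimum log2 fold change of 1, and 0 and 2 by the test against log2 0.75. The cause was not tested.

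The replicate numbers gave no clear pairing of the CBX1_W42A and control libraries. Deviations of libraries with the same number correlated at -0.114, 0.148 and 0.139, and those with different numbers at -0.292 to 0.191. Pairing with the CBX1 libraries was not examined. With a replicate block, 201 RNAs were enriched and 4 depleted, and 66 were higher and 250 lower than with CBX1. Other scalings shifted the median log2 fold change by at most 0.0877. Among the 81 named genes, signs turned only in values that were never called. CBX1 turned to 0.03 with upper-quartile factors, 0.01 with library size alone and 0.06 with the abundance trend removed, a setting in which CDH2 was 0.02, ALB -0.14 and COL3A1 -0.13. With 1 library left out, the values ran from -0.14 to 0.04 for CBX1, -0.3 to 0.04 for NEFM, -0.06 to 0.65 for ALB, -0.08 to 0.14 for COL3A1 and 0 to 0.45 for PHLDA2. Depth limits the scarce RNAs: CEACAM20, for example, had 2 counts in the control group.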
